A study of Homo sapiens with 4 samples.

Results

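To ask where chromatin was accessible around the genes that bring cholesterol to steroid synthesis at basal and increased SF-1 dosage, the FAIRE sites near 9 such genes were collected: LRP1, NPC1, NPC2, SOAT1, LIPE, STAR, STARD3, TSPO and ABCA1. Every site that lay within 50 kb of the body of one of these genes on GRCh37 was taken, which gave 55 of the 34423 sites of the basal list and 53 of the 31219 sites of the overexpression list, and the 9 genes are 9 of 20162 protein-coding genes. FAIRE-seq isolates DNA with few nucleosomes from fixed cells and sequences it. The cells were H295R/TR SF-1, a subclone of the H295R adrenocortical tumor cell line in which doxycycline induces the nuclear receptor SF-1 (NR5A1). The data were 1 FAIRE library from cells at basal SF-1 dosage and 1 from cells given doxycycline for 3 days to overexpress SF-1, and the input DNA libraries of the 2 conditions were not analysed here. All cells thus derived from this subclone and carried the inducible SF-1 in both conditions.

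Adrenocortical cells take up cholesterol from lipoproteins through receptors such as LRP1, release it from lysosomes through NPC2 and NPC1, and hold the surplus as esters that SOAT1 makes and hormone-sensitive lipase (LIPE) opens again. STAR carries cholesterol into the mitochondrion, where side-chain cleavage starts steroid synthesis, STARD3 binds it on late endosomes, TSPO lies in the outer mitochondrial membrane, and ABCA1 exports it from the cell. STAR is a classical target gene of SF-1.

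The lists give positions and no read counts, so the depth behind a site is unknown. Each list came from 1 library, so differences between conditions have no replicate check and no test was possible. Intervals cover the error of counting alone, and a site is not a replicate. A site absent from 1 list was not called in it, and closed chromatin does not follow from that. The lists hold no expression values, so the level of SF-1 could not be read from them. No copy of at least 100 bp (or nearly the whole of a narrower site) and 95% identity was found elsewhere in the genome for any of the 108 sites near the 9 genes.

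The sequences shown are those of sites at gene starts that were called only with overexpression, followed by 3 examples of sites in or near gene bodies that hold an SF-1 motif and were called in 1 list only. Shared sites with this motif are not shown. They are GRCh37 sequence on the strand of the gene, 5′ to 3′, and bases in exons of coding genes were left out. Capitals mark the GC box GGGCGG on either strand in the LRP1 and SOAT1 starts, the LXR element in the ABCA1 start, and the SF-1 motif (CAAGGTCA or CAAGGCCA, on either strand) in the others. A match describes letters and not a bound site.
LRP1 upstream of the start, overexpression list only, chr12:57521651-57521799, plus strand: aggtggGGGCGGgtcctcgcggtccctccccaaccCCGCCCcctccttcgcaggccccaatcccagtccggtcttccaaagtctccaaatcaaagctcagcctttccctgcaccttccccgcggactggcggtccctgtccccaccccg
SOAT1 start, overexpression list only, part before the start, chr1:179262801-179262848, plus strand: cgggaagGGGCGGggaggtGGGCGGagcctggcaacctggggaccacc
ABCA1 start, overexpression list only, part before the start, chr9:107690437-107690649, minus strand: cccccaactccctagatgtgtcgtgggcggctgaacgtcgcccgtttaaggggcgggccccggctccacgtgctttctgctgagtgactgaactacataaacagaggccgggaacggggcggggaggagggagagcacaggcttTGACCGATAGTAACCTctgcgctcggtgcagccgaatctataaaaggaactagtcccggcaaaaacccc
LIPE near an internal start, overexpression list only, chr19:42928901-42929199, minus strand: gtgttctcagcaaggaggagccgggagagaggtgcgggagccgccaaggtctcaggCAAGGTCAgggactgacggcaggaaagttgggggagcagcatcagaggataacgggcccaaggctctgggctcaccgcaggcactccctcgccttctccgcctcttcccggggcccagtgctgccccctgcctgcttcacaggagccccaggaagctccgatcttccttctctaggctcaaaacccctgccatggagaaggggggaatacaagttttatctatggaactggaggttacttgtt
SOAT1 intron, basal list only, 300 of its 549 bp, chr1:179300930-179301229, plus strand: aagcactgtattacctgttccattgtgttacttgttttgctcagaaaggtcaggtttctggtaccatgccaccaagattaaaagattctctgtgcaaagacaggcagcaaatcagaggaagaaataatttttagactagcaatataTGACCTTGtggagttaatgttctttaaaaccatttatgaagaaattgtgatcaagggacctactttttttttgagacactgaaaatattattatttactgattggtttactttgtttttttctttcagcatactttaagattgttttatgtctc
ABCA1 intron, basal list only, 300 of its 349 bp, chr9:107561000-107561299, minus strand: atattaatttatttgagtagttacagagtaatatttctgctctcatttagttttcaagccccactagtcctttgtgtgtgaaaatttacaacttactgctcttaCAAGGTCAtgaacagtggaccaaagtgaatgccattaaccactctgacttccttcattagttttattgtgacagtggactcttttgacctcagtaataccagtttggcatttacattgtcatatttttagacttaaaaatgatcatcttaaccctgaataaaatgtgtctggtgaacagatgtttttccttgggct
ABCA1 upstream, overexpression list only, chr9:107694301-107694599, minus strand: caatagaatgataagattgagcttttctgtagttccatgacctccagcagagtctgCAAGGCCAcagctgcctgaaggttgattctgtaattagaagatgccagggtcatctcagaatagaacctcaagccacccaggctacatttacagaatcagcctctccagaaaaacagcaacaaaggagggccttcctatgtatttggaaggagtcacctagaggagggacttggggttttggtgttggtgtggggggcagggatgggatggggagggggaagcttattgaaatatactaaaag

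Sites were about as many in one list as in the other around these genes, and most were called in both. Of the 55 basal sites, 37 shared at least 1 bp with an overexpression site and are called shared, which is 67.3% (exact 95% interval 53.3 to 79.3%), beside 54.2% of all basal sites. Of the 53 overexpression sites, 37 were shared, which is 69.8% (55.7 to 81.7%), beside 59.7% of all overexpression sites. The remaining 18 sites were called only in the basal list and 16 only in the overexpression list. The ratio of overexpression to basal sites was 0.964 (exact binomial 95% interval 0.648 to 1.43), beside 0.907 (0.893 to 0.921) over all sites, so the interval of the 9 genes holds the value of the whole lists.

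The genes differed widely in their number of sites. ABCA1 had 14 basal and 12 overexpression sites, LRP1 9 and 9, LIPE 9 and 8, SOAT1 7 and 7, STARD3 6 and 5, STAR 4 and 7, NPC1 2 and 3, NPC2 2 and 2, and TSPO 2 and 0. All 9 had a basal site and 8 had an overexpression site within 50 kb, beside 86.3% and 86.5% of protein-coding genes. A basal-only site was near 6 of the 9 (60.7% of protein-coding genes), and an overexpression-only site was near 6 (60.6%). STAR and NPC1 had more sites in the overexpression list, which is 2 of 9 beside 33.2% of protein-coding genes, and LIPE, STARD3, ABCA1 and TSPO had fewer, which is 4 of 9 beside 35.0%.

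**Figure D1:**
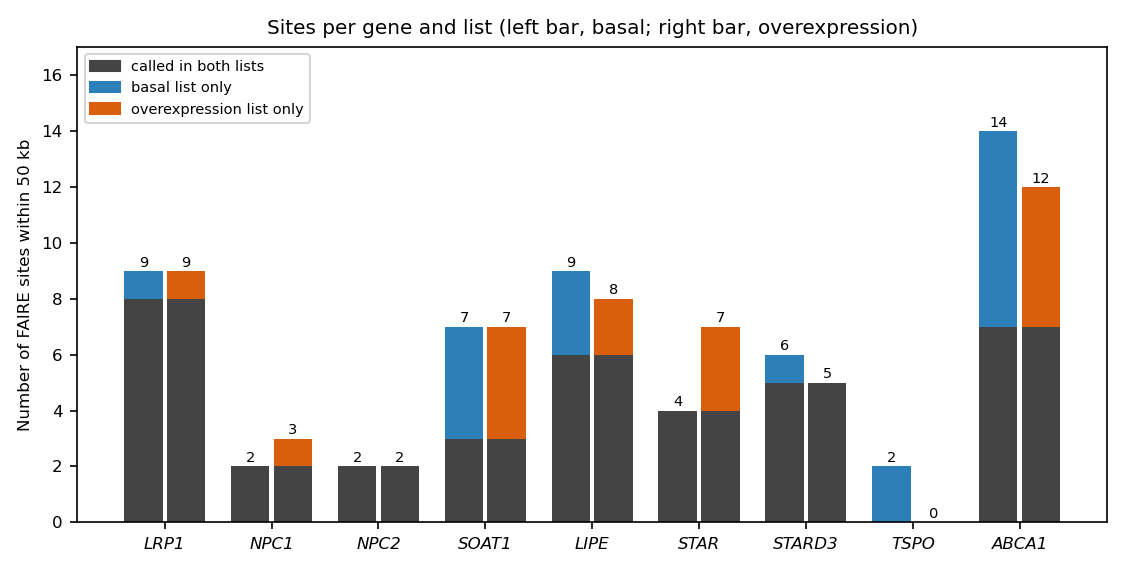
Number of FAIRE sites within 50 kb of each gene in the basal list (left bar) and the overexpression list (right bar), with shared sites in grey and sites of 1 list in colour. All 4 basal sites of STAR were shared while 3 of its 7 overexpression sites were not, and neither of the 2 basal sites of TSPO was shared.

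Counts depend on the size of the window, so sites were also taken per 100 kb of window. The median over the 9 genes was 6 basal and 7 overexpression sites, beside 3 and 3 over all protein-coding genes, although the median gene length was 27.1 kb beside 27.2 kb. The median density was 4.24 sites in both lists, beside 1.89 basal and 1.84 overexpression sites over all protein-coding genes. LIPE had the densest window in the basal list, with 7.15 sites per 100 kb (percentile 96.8 of protein-coding genes), and STAR in the overexpression list, with 6.46 (percentile 94.3, from 3.69 and percentile 79.1 in the basal list). NPC1 had 1.11 and 1.66 sites per 100 kb, the lowest density among the 8 genes with a site in both lists. The windows also held other coding genes, from 1 to 9 of them, and 26 basal and 22 overexpression sites were placed in another gene or between genes, more than 1 kb from the 5′ end of any coding gene.

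**Figure D2:**
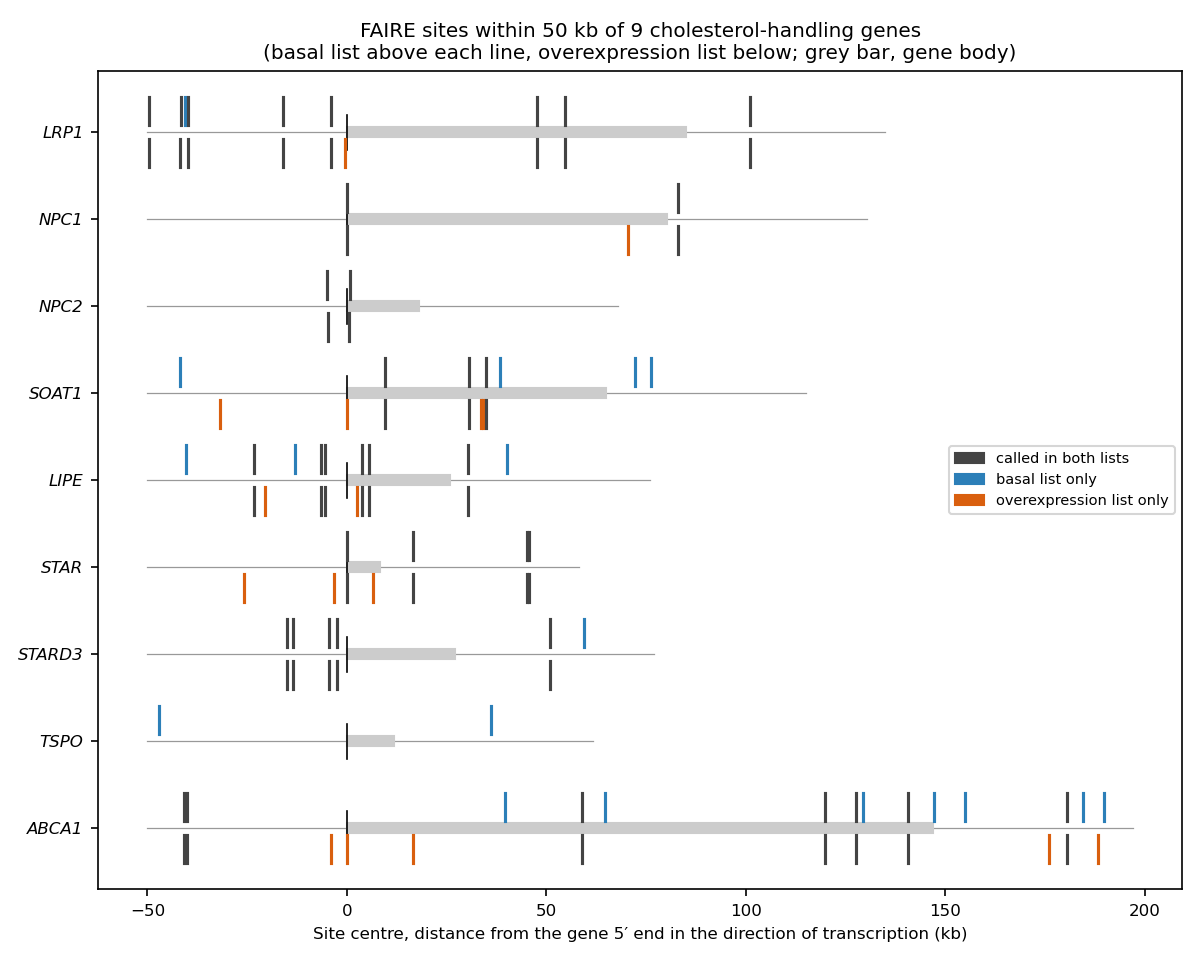
Centre of each FAIRE site relative to the 5′ end of its gene, in kb along the direction of transcription, with the basal list above and the overexpression list below each line, the gene body as a grey bar and 50 kb on either side. Sites of LRP1 and STARD3 lay mostly outside the gene body, those of SOAT1 mostly within it, and the 2 sites of TSPO lay far to either side.

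At gene starts, all differences between the lists went toward the overexpression list. A site within 1 kb of the 5′ end of the gene (a promoter site) was called in both lists at STAR, NPC1 and NPC2, which is 3 of 9 beside 35.0% of protein-coding genes. It was called only in the overexpression list at LRP1, SOAT1 and ABCA1, again 3 of 9, beside 6.13% of protein-coding genes. No member had a promoter site in the basal list only, beside 4.33%. LIPE, STARD3 and TSPO had no promoter site in either list, although LIPE had sites near internal starts. With these, 4 basal and 8 overexpression sites lay at starts of the members, and the 4 that were in 1 list only were all overexpression-only.

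**Figure D3:**
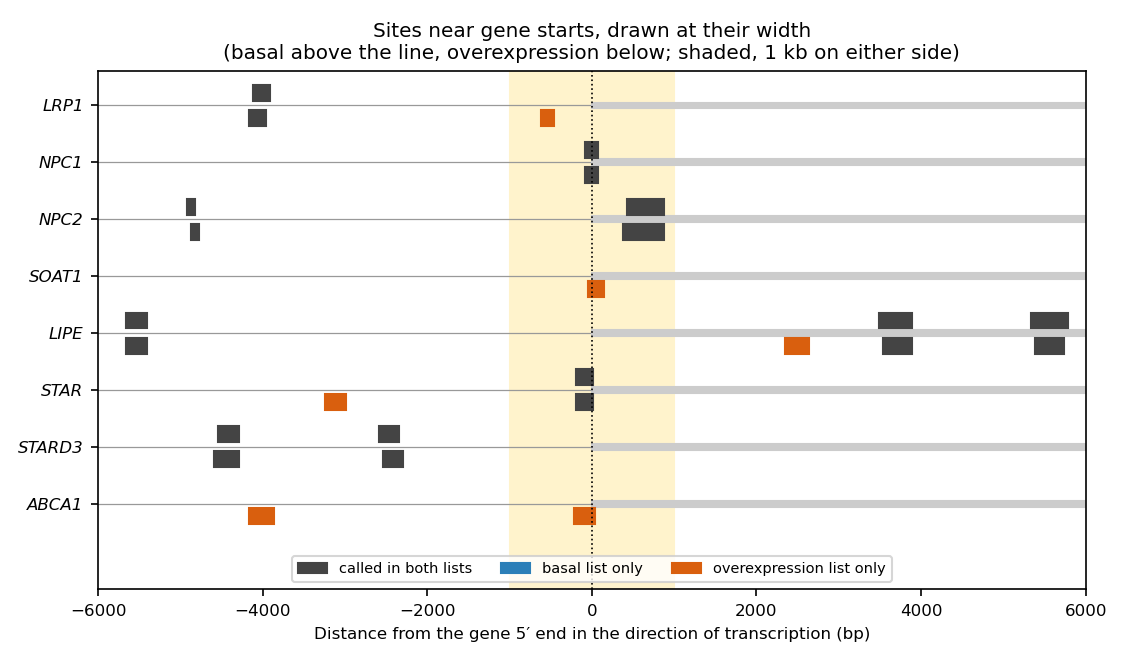
Sites near the 5′ end of each gene, drawn to scale in bp along the direction of transcription, basal above and overexpression below the line, with 1 kb on either side shaded. In the shaded zone LRP1, SOAT1 and ABCA1 have a site only below the line, and NPC1, NPC2 and STAR have sites on both sides of it. TSPO had no site in this range and is not drawn.

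Sites at the starts of these genes were rich in GC, whether shared or not. The GC content of the 4 overexpression-only sites was 68.5% at LRP1, 71.9% at SOAT1, 61.0% at ABCA1 and 60.5% at LIPE. That of the shared sites in the basal list was 60.8% at STAR, 76.5% at NPC1, 70.2% at NPC2 and 66.4% at LIPE, so the ranges overlapped. Over the whole lists, shared sites had a mean GC content of 53.8% (basal list) and 54.0% (overexpression list). Overexpression-only sites were richer in GC than basal-only sites, with means of 48.7% and 42.9%. The part of this difference between the libraries in the calls at starts was not tested.

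LRP1, a large endocytic receptor for lipoproteins (GRCh37 chr12:57522266-57607144, plus strand), had 8 shared sites and 1 site of its own in each list. The overexpression-only site was its promoter site, chr12:57521651-57521799 (149 bp), centred 541 bp upstream of the 5′ end in an intron of the neighbouring STAT6, and it stood at 37.1% of the overexpression list. Within the gene body, a site over an exon was called at chr12:57569701-57569949 in the basal list (249 bp) and ended at 57569899 in the overexpression list (199 bp). An intronic site began at 57576801 in both lists and was wider in the overexpression list, at 249 bp against 199 bp. These gene-body sites were therefore the same pair in either condition. The widest site of the window, chr12:57472451-57472999, was 549 bp in both lists, covered an annotated start of NEMP1, and stood at 0.198% of the basal and 1.79% of the overexpression list, while the basal-only site lay at the NEMP1 promoter (299 bp).

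NPC1, the lysosomal membrane protein that exports cholesterol (chr18:21086148-21166470, minus strand), had the same promoter site in both lists. It spanned chr18:21166401-21166549 (149 bp), covered the 5′ end of the gene, and stood at 38.9% of the basal and 34.9% of the overexpression list. An overexpression-only site of 199 bp, chr18:21096001-21096199, lay in an intron of NPC1 that RMC1 overlaps. The widest site near NPC1 was at the RMC1 promoter, with 249 bp at 64.6% of the basal list and 299 bp at 18.1% of the overexpression list.

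NPC2, the soluble lysosomal protein that hands cholesterol to NPC1 (chr14:74942895-74960880, minus strand), had 2 sites, both shared. Its promoter site was wide, 449 bp in the basal list (chr14:74960001-74960449) and 499 bp in the overexpression list (to 74960499), and it covered an internal annotated start of NPC2. Its place moved from 44.4% of the basal to 16.6% of the overexpression list. The site also lay within 1 kb of the 5′ end of ISCA2, so it cannot be given to NPC2 alone. The other site, in LTBP2 upstream, was 99 bp wide in both lists and close to the end of each, at 95.8% and 99.7%.

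SOAT1, the enzyme that esterifies cholesterol for storage (chr1:179262849-179327815, plus strand), had 7 sites in each list, of which 3 were shared and 4 were in that list only. The overexpression-only promoter site, chr1:179262801-179262999 (199 bp), covered the 5′ end and stood at 60.2% of the overexpression list. The introns carried 4 basal and 5 overexpression sites, of which 3 were shared. The earliest of these in both lists lay 9601 bp into the gene and was 499 bp wide in the basal list (chr1:179272201-179272699, place 1.21%) and 299 bp in the overexpression list (chr1:179272351-179272649, place 11.3%). It was thus narrower and later with overexpression. The shared intronic site that began at 179293301 in the basal list (199 bp) and at 179293351 in the overexpression list (149 bp) held an SF-1 motif in both.

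A wide basal-only intronic site of SOAT1, chr1:179300851-179301399 (549 bp), also held an SF-1 motif, at 80.4% of the basal list. The 2 overexpression-only intronic sites, chr1:179296301-179296399 (99 bp, place 98.3%) and chr1:179296801-179297049 (249 bp, place 46.0%), held none. Another shared intronic site, just downstream of these 2, held the motif in both lists. Outside the gene, SOAT1 had 3 basal-only sites and 1 overexpression-only site, which was intergenic.

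LIPE, the hormone-sensitive lipase that frees cholesterol from its esters (chr19:42905666-42931540, minus strand), had 6 shared, 3 basal-only and 2 overexpression-only sites. No site lay within 1 kb of the 5′ end of the gene. Sites were called at internal starts: a shared site that began at chr19:42927651 (399 bp in the basal list, 349 bp with overexpression) stood early in both lists, at 1.74% and 5.11%. An overexpression-only site, chr19:42928901-42929199 (299 bp, place 32.9%), was centred 775 bp upstream of such a start and held an SF-1 motif. LIPE-AS1, an antisense transcript, covers the whole gene. The shared site also covers a LIPE-AS1 start, so it cannot be given to LIPE alone. The overexpression-only site covers no annotated start, and it overlaps exons of LIPE-AS1 and of another long non-coding RNA gene.

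In an intron of LIPE, a shared site was 449 bp wide in the basal list (chr19:42925751-42926199, place 26.1%) and 349 bp in the overexpression list (place 70.9%), among the larger moves toward the end of the list. The widest overexpression site of LIPE, chr19:42900951-42901399 (449 bp, place 4.82%), lay downstream of the gene and was shared (399 bp in the basal list). It held the cAMP response element TGACGTCA. In both lists it also covered an annotated start of LIPE-AS1, so it cannot be given to LIPE alone. All 3 basal-only sites lay outside the gene body and were narrow, from 99 to 149 bp, whereas the 2 overexpression-only sites were 299 and 349 bp.

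STAR, which controls the entry of cholesterol into mitochondria (chr8:38000218-38008510, minus strand), had 4 basal sites, all shared, and 3 more in the overexpression list. Its promoter site had the same bounds in both lists, chr8:38008501-38008699 (199 bp), and covered the 5′ end. It stood at 46.4% of the basal and 60.2% of the overexpression list. The 3 overexpression-only sites lay in an exon of STAR (chr8:38002001-38002099, 99 bp, place 98.7%), 3115 bp upstream in a long non-coding RNA gene (chr8:38011501-38011749, 249 bp, place 29.5%), and at the divergent starts of BAG4 and LSM1 (chr8:38034101-38034449, 349 bp, place 40.8%). The last of these was the widest overexpression site of STAR, and the exonic site was among the last in its list. The other 3 shared sites lay at or in ASH2L downstream, and the widest basal site of STAR was 1 of them, at 249 bp.

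STARD3, a late endosomal protein with a STAR-related lipid transfer domain (chr17:37793343-37820454, plus strand), had no site in its gene body in either list. The nearest sites lay 2344 bp from it in the basal list and 2294 bp from it with overexpression, in an intron of PPP1R1B. Of its 6 basal sites, 5 were shared, and 3 of these 5 were wider in the overexpression list and none narrower. The widest were 249 bp in the basal list and 299 bp in the overexpression list. The shared site at the start of ERBB2 moved from 84.6% of the basal to 30.9% of the overexpression list. The basal-only site, chr17:37852801-37852999 (199 bp), lay within 1 kb of the 5′ end of PGAP3 and held an SF-1 motif.

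TSPO, the translocator protein of the outer mitochondrial membrane (chr22:43547553-43559248, plus strand), had the fewest sites. Its 2 basal sites were narrow, 99 and 149 bp, and late in the list, at 95.7% and 84.2%. They lay 47104 bp upstream between genes and 24303 bp downstream near the 5′ end of TTLL12, and neither was called in the overexpression list, where the nearest site was 57204 bp away. No site was called in the gene body of TSPO or within 1 kb of its start in either list.

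ABCA1, the transporter that exports cholesterol to apolipoprotein A-I (chr9:107543287-107690436, minus strand), had the most sites, of which 7 were shared, 7 basal-only and 5 overexpression-only. Its promoter site, chr9:107690401-107690649 (249 bp), was overexpression-only, covered the 5′ end, and stood at 25.0% of the list. It held 3 GC boxes and an LXR element, the type of sequence through which oxysterols activate this gene. A further overexpression-only site lay 4014 bp upstream (chr9:107694301-107694599, 299 bp, place 32.7%) and held an SF-1 motif. An overexpression-only intronic site was 299 bp wide at chr9:107673801-107674099, 16486 bp into the gene. All 3 of these sites lay at or near the 5′ part of ABCA1, and the other 2 overexpression-only sites were 199 bp wide and lay downstream of the gene.

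Basal-only sites of ABCA1 lay farther into the gene. They were called in introns at chr9:107650751-107650899 (149 bp, with an SF-1 motif), chr9:107625601-107625799 (199 bp) and chr9:107560951-107561299 (349 bp, with an SF-1 motif and an LXR element). A basal-only site of 349 bp, chr9:107543051-107543399, covered the 3′ end of the gene and stood at 8.20% of the basal list, the earliest of the 18 basal-only sites near the 9 genes. The remaining 3 basal-only sites lay downstream of the gene, and the widest basal site of the window, chr9:107535151-107535699 (549 bp) in NIPSNAP3B, was among them.

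The gene body of ABCA1 also held 4 shared sites. The site at chr9:107562651-107562949 (299 bp) touched an exon and moved from 7.70% of the basal to 44.9% of the overexpression list, where it spanned 107562751 to 107562999 (249 bp). The intronic site at chr9:107631301-107631549 had the same bounds in both lists and similar places, 30.8% and 32.9%. Those that began at 107549651 (199 and 249 bp) and 107570451 (149 and 199 bp) were wider in the overexpression list. Centred 40114 and 40739 bp upstream of the 5′ end, a pair of shared sites, chr9:107730401-107730699 (299 bp) and chr9:107731051-107731299 (249 bp), also kept the same bounds, and the former stood at 5.35% and 6.99% of the lists.

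Sites near these genes were as wide as other sites. The width ranged from 99 to 549 bp in both lists with a median of 249 bp, which was also the median over each whole list. In the basal list, shared sites had a median of 249 bp and basal-only sites of 199 bp, beside 299 and 199 bp over all sites. In the overexpression list, shared sites had a median of 249 bp and overexpression-only sites of 224 bp, beside 249 and 199 bp. Of the 37 shared pairs, 15 were wider in the overexpression list, 7 narrower and 15 equal, which is 40.5% wider and 18.9% narrower, beside 36.2% and 37.3% of all 18704 pairs. Pairs with the same bounds in both lists were 10 of 37 (27.0%), beside 17.4% of all pairs.

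**Figure D4:**
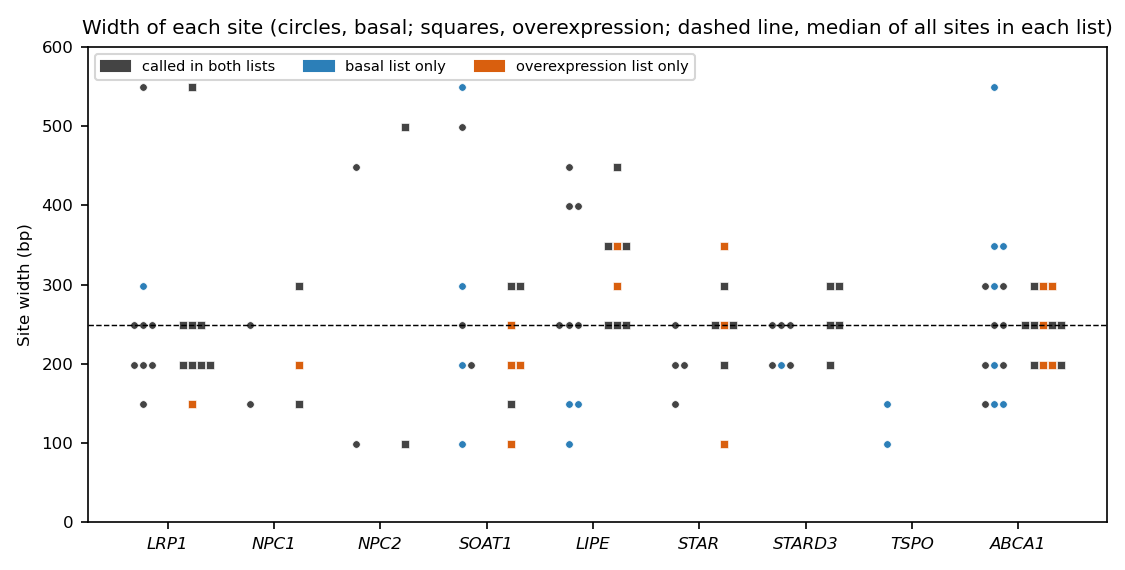
Width in bp of each site near the 9 genes, basal list as circles and overexpression list as squares, coloured by whether the site was shared, with a dashed line at 249 bp, the median of all sites in each list. Sites wider than 500 bp were those of LRP1 in both lists and 1 basal-only site each of SOAT1 and ABCA1.

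The place of a site in its list (its peak number as a percentage of the list, with low values first) moved in both directions. Of the 37 pairs, 19 stood earlier in the overexpression list (51.4%) and 18 later, beside 46.8% earlier over all pairs, and the median shift was -0.1 percentage points. The larger moves toward the start of the list were at the ERBB2 start near STARD3 (84.6 to 30.9%) and the RMC1 promoter near NPC1 (64.6 to 18.1%), and those toward the end were in introns or exons of LIPE (26.1 to 70.9%) and ABCA1 (7.70 to 44.9%). Shared sites had a median place of 43.8% in the basal list and of 36.5% with overexpression, beside 32.7 and 35.5% for shared sites over the whole lists. Basal-only sites stood at a median of 63.7% and overexpression-only sites at 40.0%, beside 67.4 and 67.8% for such sites over the whole lists. What quantity ordered the lists is not given in the sources used here.

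**Figure D5:**
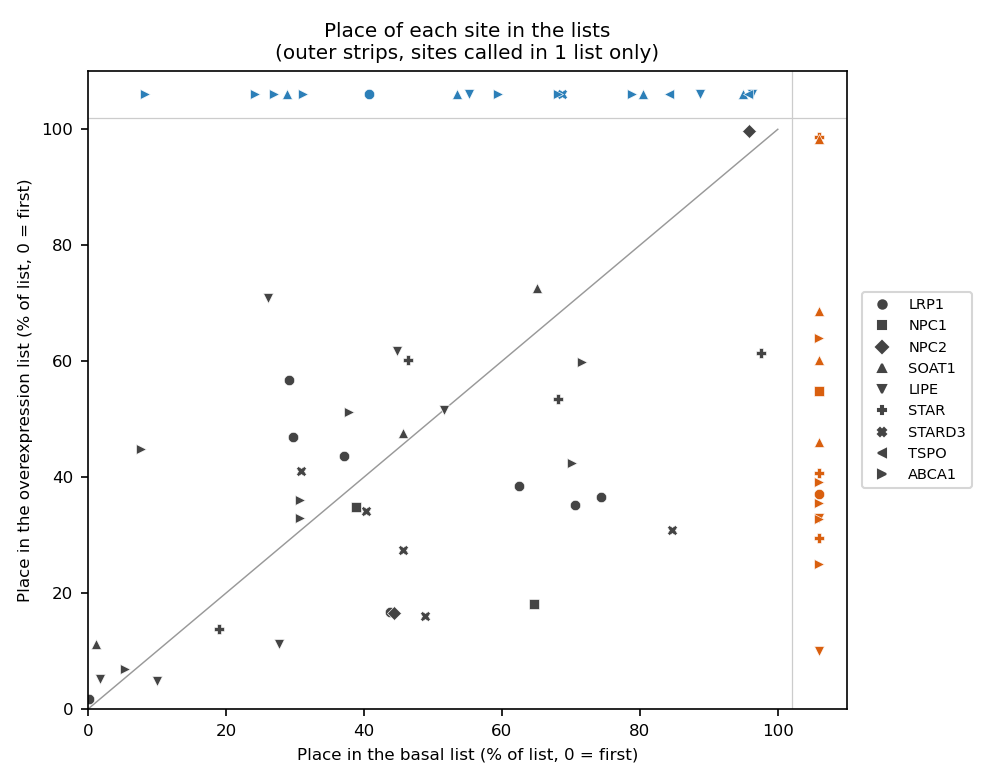
Place of each site in the basal list (x axis) and the overexpression list (y axis), in percent of the list with 0 as first, with a line where both are equal and outer strips for sites called in 1 list. The 37 shared sites scatter to both sides of the line, with 19 below it, and basal-only sites lie between 8.20 and 96.2%.

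By annotation, intronic sites were the largest class inside the genes. Introns of the members held 12 basal sites, of which 4 were basal-only, and 13 overexpression sites, of which 4 were overexpression-only. Most of them lay in SOAT1 and ABCA1, with 4 and 6 basal and 5 and 5 overexpression sites. Exons held 2 sites in each list. A shared ABCA1 site touched an exon in both lists. By its centre it was counted as exonic in the basal list and as intronic in the overexpression list. Promoters of other coding genes held 11 basal and 8 overexpression sites, other genes held 17 and 15 in their bodies, and 9 and 7 were intergenic. Of the 5 basal-only intergenic sites, 3 were near ABCA1.

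Sites of both lists were also searched on both strands for sequence motifs. The SF-1 motif was found in 8 of 55 basal and 7 of 53 overexpression sites, which is 14.5% and 13.2%, beside 12.7% and 12.6% of all sites. In the basal list these sites were near SOAT1 and STARD3, with 3 sites each, and ABCA1, with 2. In the overexpression list, they were near SOAT1 and STARD3, with 2 sites each, and STAR, LIPE and ABCA1, with 1 each. The site near STAR was the shared site in ASH2L, chr8:37991851-37992099 (249 bp). Its basal interval was narrower (149 bp) and left the motif out, so the motif marks no new site at STAR. The shares near the 9 genes were thus close to those of the whole lists.

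The other motifs were at shares of the same order. The GC box was in 16 basal and 20 overexpression sites (29.1% and 37.7%), beside 24.2% and 28.4% of all sites. The LXR element, searched as a pair of AGGTCA half-sites 4 bases apart with up to 2 mismatches in all, was in 2 sites of each list, beside 3.00% and 3.58% of all sites. A site in CXCL17 upstream of LIPE held it in both lists, and near ABCA1 it was in the basal-only intronic site and in the overexpression-only promoter site. The cAMP response element was in 1 site of each list, beside 1.32% and 1.46%, and the CTCF motif, with up to 1 mismatch, in 11 and 7 sites, beside 17.5% and 16.0%. The sterol response element TCACCCCAC was in none of the sites, beside 0.250% and 0.314% of all sites.

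The same count was made around other genes of cholesterol handling. Around 20 further genes of uptake, storage and transport there were 82 basal and 85 overexpression sites, a ratio of 1.04 (exact binomial 95% interval 0.756 to 1.42). Overexpression sites were more at 7 genes and fewer at 7, beside 33.2% and 35.0% of protein-coding genes, and numbers were equal at 6. A promoter site was in both lists at 6 of these 20 genes, beside 35.0% of protein-coding genes. It was in the basal list only at 2 (4.33% of protein-coding genes) and in the overexpression list only at 2 (6.13%). The classes called in 1 list were thus equal here, unlike at the 9 genes. SCARB1, the HDL receptor through which adrenal cells take up cholesterol esters, had 8 basal and 15 overexpression sites, of which 9 were overexpression-only. None of its sites in either list was a promoter site. Its excess of overexpression sites was the largest among the 20 genes. LIPA, the lysosomal acid lipase, had 12 and 8. VLDLR had none in either list. SCARB1, LIPA and VLDLR were named with their values known.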

How the data were processed

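FAIRE-seq was made from H295R/TR SF-1 cells at basal SF-1 expression and after 3 days of doxycycline, with a FAIRE library and an input library per condition (4 samples), grouped per the labels. Each FAIRE library had 1 deposited list of sites with chromosome, start, end and a running peak number, and the deposited score was 1000 for every site, so it held no height. The submitters' processing notes name CASAVA 1.8 and hg19. For the ChIP libraries the study's methods name ELAND and the SeqPeak algorithm of CisGenome, while for FAIRE the aligner, caller and threshold are not given in the sources used here. Starts lay on a 50 bp grid. The lists hold no read counts, so depth is unknown.

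Sites were assigned to a gene when they lay within 50 kb of its body (GENCODE release 44 mapped to GRCh37, matched by symbol), by Python 3.11.15, NumPy 2.4.6, SciPy 1.17.1 and pysam 0.24.0. Sites of the 2 lists with an overlap of 1 bp or more were called shared. Promoter sites overlapped the 1 kb on either side of the gene 5′ end. The remaining sites were placed by their centre. Intervals are exact (Clopper-Pearson for shares, binomial for ratios) and cover counting error only. With 1 library per group no p-value was computed. Scripts were tested on simulated data. Named were all 9 genes, and of their sites every promoter site, every site in a gene body and the widest per list, with the exceptions given last. Members, lists, motifs and alternatives were chosen with earlier results of these data known. Some sites and genes that these rules cover, gene-body sites included, are not reported here.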

Additional observations from a re-analysis of the deposited data

How the results depend on the processing

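The number of sites depended on the rule that ties a site to a gene. With a 10 kb window there were 30 basal and 34 overexpression sites, with sites whose nearest coding gene was the member 22 and 26, and with sites at least as wide as the pooled median (249 bp) 29 and 34. The ratio of overexpression to basal sites then lay above 1, at 1.13, 1.18 and 1.17. It was 1.06 when the basal list was cut by peak number to the 31219 sites of the overexpression list. That cut makes the whole lists equally long, so it raises the ratio over all sites to 1 by construction. No ratio over all sites or genes was computed for the other rules. A 100 kb window gave 71 and 70 sites and a ratio of 0.986. Members with more overexpression than basal sites numbered 5 with the 10 kb window and 4 with the cut list. Members with a promoter site in both lists fell to 1 (NPC2) among sites at least as wide as the pooled median. The share of all protein-coding genes under these changed rules was not computed, so these counts cannot be read as traits of the members. The overexpression-only promoter sites of LRP1 (149 bp) and SOAT1 (199 bp) also fall below this width, and that of ABCA1 equals it (249 bp). The cause of these changes was not tested. The shared part ranged from 65.5 to 77.3% for basal and from 58.8 to 70.0% for overexpression sites over all alternatives, overlap of at least 50% of both sites and proximity within 500 bp included. No alternative leaves out a library and no paired analysis was possible because each condition had 1 library. Unknown depth limits every call of a site in 1 list only.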

Other observations

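The genes that make cholesterol and those that turn it into steroids were counted by the same rule. Around 14 genes of cholesterol synthesis there were 69 basal and 61 overexpression sites, a ratio of 0.884 (exact binomial 95% interval 0.616 to 1.27), and 12 of the 14 had a promoter site in both lists, beside 35.0% of protein-coding genes. CYP51A1, the lanosterol demethylase, had 7 basal and 3 overexpression sites, and SCAP, which escorts the SREBP factors, had 10 and 12. Around 12 genes of steroid enzymes and their redox partners there were 49 basal and 47 overexpression sites, a ratio of 0.959 (0.629 to 1.46). A promoter site was in both lists at 4 of the 12, beside 35.0% of protein-coding genes. It was in the basal list only at 1 (FDX1), beside 4.33%, and in the overexpression list only at 1 (CYP11A1), beside 6.13%. CYP11A1, the side-chain cleavage enzyme, had 8 and 10 sites, and HSD3B2 had 8 and 4 sites. These genes were picked after their values were seen.

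Whether a site entered the count of LRP1 turned on a small distance. Its farthest sites inside the window lay 49267 bp from the gene body in both lists, and the nearest basal site outside it lay at 50457 bp.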
